A study of Mus musculus with 10 samples.

Results

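Thrombospondins and the other matricellular proteins are secreted into the extracellular matrix, where they mostly tune how cells attach to it, how growth factors are held or released and how collagen is assembled, rather than bearing load themselves. The genes described here are *Thbs1*, *Thbs2*, *Thbs3*, *Thbs4*, *Comp*, *Postn*, *Tnc*, *Sparc* and *Fn1*, taken by symbol from the table of gene counts without regard to their values. They are 9 of 55453 gene symbols, and all 9 were among the 14614 genes with enough counts to be tested.

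RNA-seq was done on whole aortae of male C57BL/6 mice, 5 young mice aged 14.5 weeks and 5 old mice aged 92.5 weeks, with 1 aorta from 1 mouse per library. No genetic change and no drug treatment is named for either group. The animals were perfused with saline and the fat around the aorta was removed before RNA extraction. The question was how the transcripts of the aortic wall differ with age.

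The thrombospondins fall into a subgroup that assembles as trimers (*Thbs1* and *Thbs2*), which binds CD36 and CD47 and restrains new vessel growth, and a subgroup that assembles as pentamers (*Thbs3*, *Thbs4* and *Comp*), which binds collagens and other matrix proteins. *Thbs1* protein can also release active TGF-β from its latent form. Periostin (*Postn*), tenascin C (*Tnc*) and SPARC (*Sparc*) act around collagen fibrils and at sites of wall remodelling, and fibronectin (*Fn1*) is the adhesive glycoprotein on which integrins and many of these proteins meet.

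Between 19640401 and 22886153 reads per library were counted on genes. The smooth muscle genes that define the vessel wall were abundant in all libraries, with *Acta2* at 390587 ± 31099 (SD, n = 5) normalized counts in young aortae and 348817 ± 33917 in old ones. The library old 2 stood apart in its share of counts on mitochondrial genes, 11% against 4.5% to 6.51% in the other 9. It was also the lowest old library for 7 of the 9 genes and the lowest of all 10 libraries for 5 of them (*Thbs1*, *Thbs2*, *Postn*, *Tnc* and *Sparc*), and values without it are given where it moved a result.

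On GRCm38 the genes lie at chr2:118111876-118127133 (*Thbs1*, plus strand), chr17:14665500-14694235 (*Thbs2*, minus), chr3:89215180-89226837 (*Thbs3*, plus), chr13:92751590-92794818 (*Thbs4*, minus), chr8:70373558-70382066 (*Comp*, plus), chr3:54361109-54391037 (*Postn*, plus), chr4:63959785-64047015 (*Tnc*, minus), chr11:55394500-55423183 (*Sparc*, minus) and chr1:71585520-71653200 (*Fn1*, minus). All 9 are annotated as protein coding. Genes on the opposite strand overlap 3.42% of the exonic sequence of *Thbs1*, 2.26% of *Tnc*, 2.5% of *Fn1* and 6.59% of *Thbs3*, and none of the other 5. The strand setting of the counting is not given in the sources used here, so that reads from such stretches cannot be told apart.

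Start regions of some of these genes are shown first, as the 250 bases before the gene's start in RefSeq on GRCm38.p6, written 5′ to 3′ on the strand of the gene with motif matches in capitals. *Postn* and *Tnc* are shown as abundant matricellular genes. *Thbs3* and *Thbs4* are shown because they belong to 1 subgroup and lay far apart in level. The positions are chr3:54360857-54361106 on the plus strand for *Postn*, chr4:64047016-64047265 on the minus strand for *Tnc*, chr3:89214930-89215179 on the plus strand for *Thbs3* and chr13:92794819-92795068 on the minus strand for *Thbs4*.
Postn: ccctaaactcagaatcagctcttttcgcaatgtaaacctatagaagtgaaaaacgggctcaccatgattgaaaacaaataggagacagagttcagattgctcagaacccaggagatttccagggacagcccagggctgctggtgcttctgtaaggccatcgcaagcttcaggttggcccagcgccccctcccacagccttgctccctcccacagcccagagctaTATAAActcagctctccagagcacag
Tnc: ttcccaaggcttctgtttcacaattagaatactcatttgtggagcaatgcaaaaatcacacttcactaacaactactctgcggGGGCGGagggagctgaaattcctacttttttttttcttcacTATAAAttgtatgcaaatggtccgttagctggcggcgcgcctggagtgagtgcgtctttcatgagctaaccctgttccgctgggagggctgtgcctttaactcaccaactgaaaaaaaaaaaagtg
Thbs3: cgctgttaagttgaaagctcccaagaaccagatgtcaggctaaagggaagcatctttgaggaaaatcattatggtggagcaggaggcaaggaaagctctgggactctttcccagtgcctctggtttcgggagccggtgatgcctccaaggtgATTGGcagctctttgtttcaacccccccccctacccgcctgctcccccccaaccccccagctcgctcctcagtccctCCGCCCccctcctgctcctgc
Thbs4: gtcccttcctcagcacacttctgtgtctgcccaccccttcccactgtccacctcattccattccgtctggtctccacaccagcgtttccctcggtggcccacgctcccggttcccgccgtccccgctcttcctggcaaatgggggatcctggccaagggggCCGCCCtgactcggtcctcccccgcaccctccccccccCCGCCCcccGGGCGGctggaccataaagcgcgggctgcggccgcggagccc
The motifs searched on both strands were the TATA box (TATAAA, in 12.4% of 32851 promoters of the same length), the CCAAT box (CCAAT, 33.8%), the GC box (GGGCGG, 32.7%), an AP-1 site (TGANTCA, 6.75%) and an E-box (CACGTG, 6.02%). In *Postn* a TATA box began 26 bases before the start, on the strand of the gene. In *Tnc* a TATA box began 126 bases and a GC box 167 bases before the start. *Thbs3* held a CCAAT box and a GC box, both on the opposite strand, where the letters read ATTGG and CCGCCC. *Thbs4* held 3 GC boxes, and its region was richer in G and C than that of *Thbs3* (70.8% against 58.8%). A match is only a run of letters in these windows.

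Levels of different genes were set side by side in a form of RPKM. Counts divided by a size factor for each library were scaled to kilobases of exon and to the mean total of the 10 libraries. *Sparc* was the highest of the 9 in young aortae at 1269 ± 76.8 (SD, n = 5), followed by *Fn1* at 536.1 ± 81.9 and *Postn* at 330.0 ± 34.9. These 3 stood apart from each other and from the rest in every young library. *Tnc* (46.7 ± 9.38), *Thbs1* (28.7 ± 7.36), *Comp* (24.1 ± 3.6), *Thbs3* (20.3 ± 1.59) and *Thbs2* (18.0 ± 0.528) came next, each overlapping its neighbour in this order. *Thbs4* was far below all of them at 0.183 ± 0.0924. In old aortae *Fn1* came first on this scale at 719.1 ± 169.0 and *Sparc* next at 647.1 ± 112.0, with overlapping ranges (472.8 to 944.2 and 471.5 to 781.4). *Comp* stood above *Thbs1* in old aortae and below it in young aortae, and in both groups their ranges overlapped. Exon length was taken over all annotated transcripts of a gene, which can understate the level of genes with many transcripts. *Fn1* has 17, *Thbs3* 11 and *Postn* and *Sparc* 9 each. The order of the genes and the gaps between them hold for this choice of length, and other lengths were not tested.

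**Figure D1:**
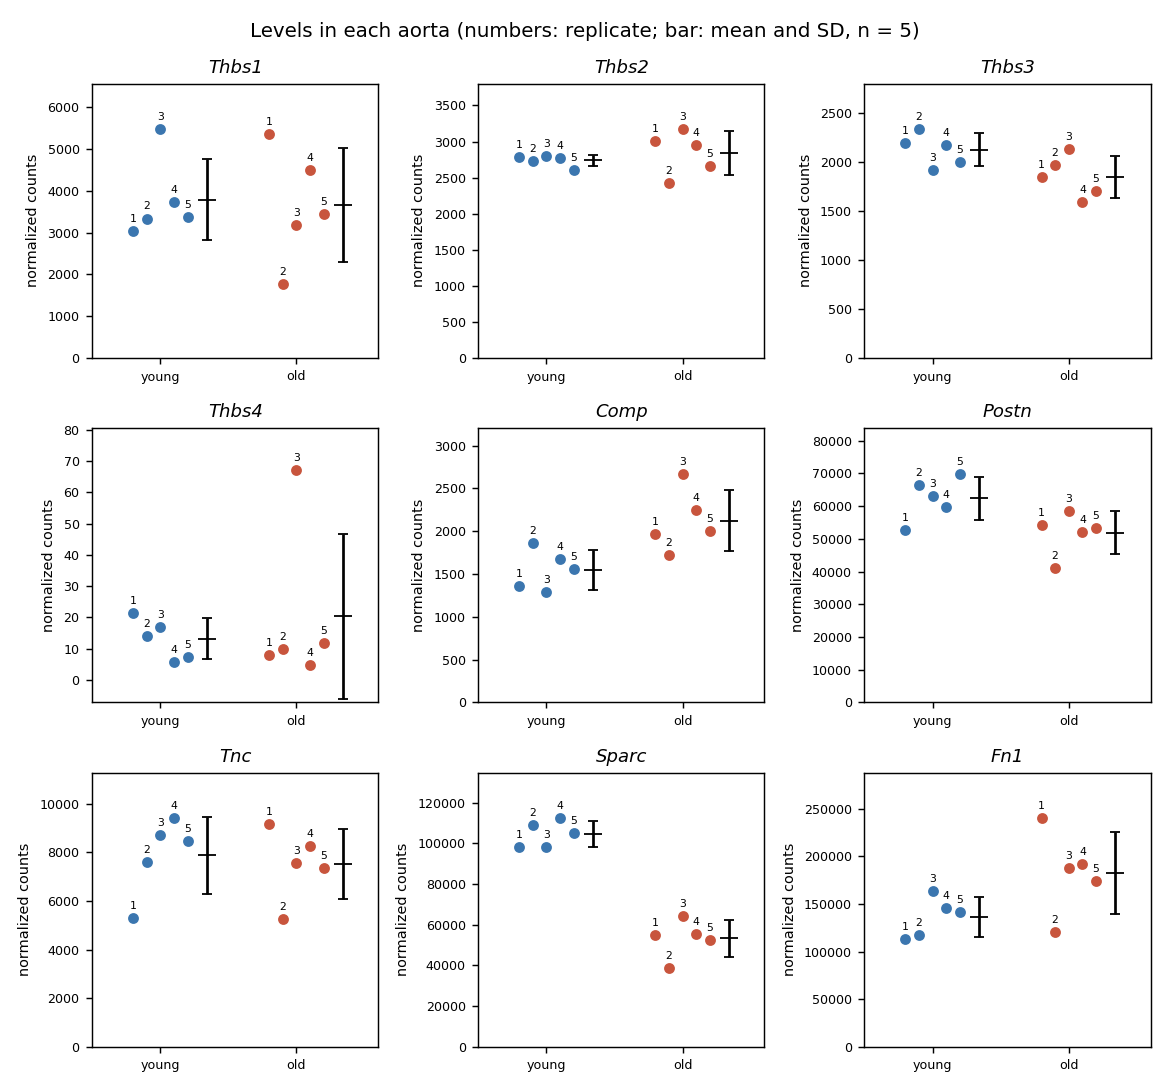
Normalized counts of the 9 genes in each aorta, on a linear axis of its own for each gene. Each point is 1 aorta, grouped as young and old, and bars give the mean and SD (n = 5 per group). Small figures name the replicate, and the SD bar of *Thbs4* in old aortae reaches below 0. All old aortae lie below all young ones for *Sparc*, and the groups overlap for the other 8 genes.

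By edgeR's quasi-likelihood test with Benjamini-Hochberg adjustment over all genes, at an adjusted p below 0.05, 2 of the 9 genes changed with age. *Sparc* fell and *Comp* rose. Of all tested genes 11.5% were called in either direction, 6.48% higher and 4.99% lower in old aortae. The edgeR counts of called genes in the lists below stand beside these same shares. Changes are log2 fold changes of old over young, so that negative values are lower in old aortae, and levels are normalized counts, that is counts divided by a size factor for each library. The groups did not overlap in 1 of the 9 genes, against 9.92% of all tested genes. The median log2 fold change of the 9 was -0.05 against 0.003 over all tested genes, with 4 positive and 5 negative values. In whole tissue, fewer cells of a type and less RNA per cell cannot be told apart.

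**Figure D2:**
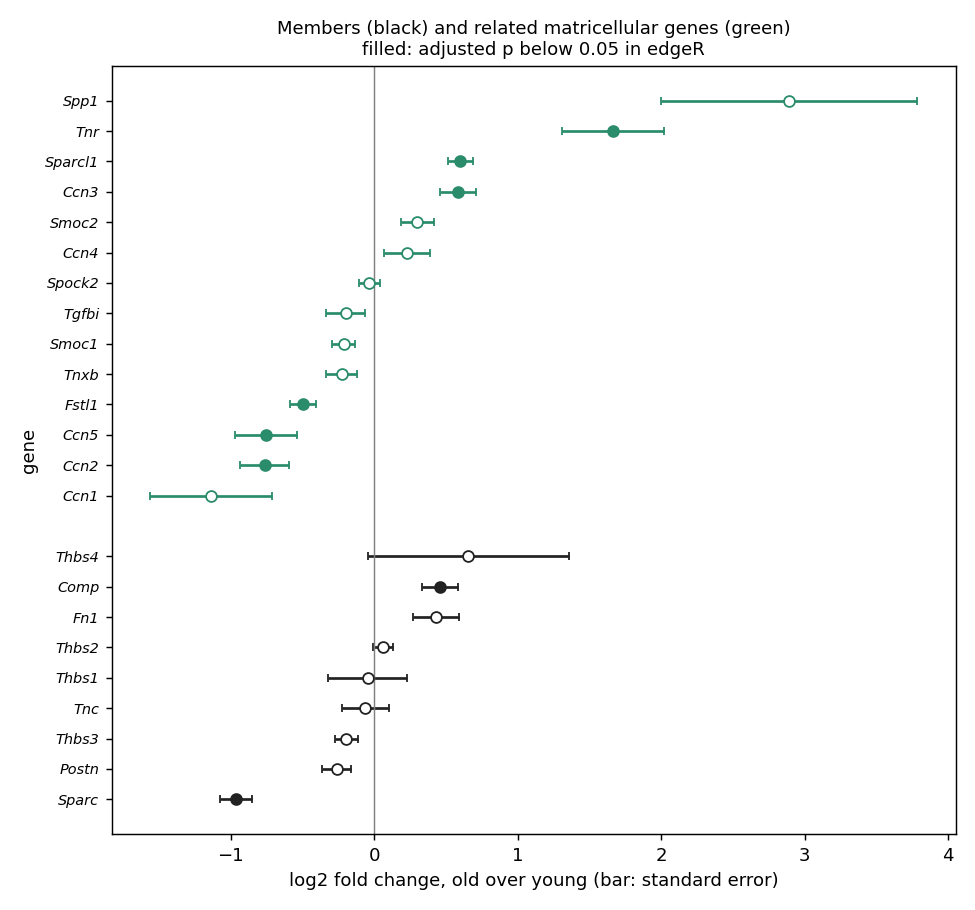
Log2 fold change of old over young aortae for the 9 genes (black) and 14 related matricellular genes (green), from edgeR's fit across all genes, with bars of 1 standard error and filled points at an adjusted p below 0.05. Among the 9, *Sparc* at -0.96 and *Comp* at 0.46 are filled, and *Thbs4* has the widest bar (SE 0.70).

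*Sparc* encodes a collagen-binding glycoprotein that is needed for collagen to be deposited into fibrils. Its normalized counts were 98211, 108889, 98212, 112343 and 104910 in young aortae 1 to 5 and 54886, 38819, 64333, 55692 and 52661 in old aortae 1 to 5. The highest old value lay well below the lowest young value. The mean went from 104513 ± 6325 to 53278 ± 9220 (SD, n = 5 each), a ratio of 0.510, with a log2 fold change of -0.96 (SE 0.11, adjusted p = 0.00018). *Sparc* ranked 20 of the 729 genes that fell when these were ordered by p. It was the gene ranked 20 of 14614 by level, and its share of all counts was 0.477% ± 0.0220 in young and 0.249% ± 0.0433 in old aortae. Without old 2 the old mean was 56893 ± 5123 (n = 4), and no omission of 1 aorta took the log2 fold change outside -1.04 to -0.87.

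*Comp*, the cartilage oligomeric matrix protein and a member of the pentameric subgroup, which smooth muscle cells of arteries also make, was the member that rose. Its normalized counts were 1361, 1862, 1294, 1681 and 1556 in young aortae 1 to 5 and 1970, 1718, 2671, 2245 and 2008 in old aortae 1 to 5. The groups overlapped in 1 place, where old 2 lay below young 2, and the other 4 old aortae were above every young one. The mean went from 1551 ± 232.2 to 2122 ± 359.1 (SD, n = 5 each), a ratio of 1.37, with a log2 fold change of 0.46 (SE 0.12, adjusted p = 0.032). *Comp* was ranked 774 of the 947 genes that rose. The call was lost without any 1 of young 1, 3, 4 or 5 or old 3, 4 or 5 (adjusted p from 0.0521 to 0.0673), while the log2 fold change stayed between 0.36 and 0.53 over all 10 omissions. With the low-count filter off the adjusted p was 0.0769, and with a correction for GC content and length 0.0613.

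Because *Comp* is best known from cartilage and tendon, the levels of other genes of those tissues were read in the same libraries. Of 10 chondrocyte genes 5 could be tested and 2 rose, the link protein *Hapln1* (120.2 ± 17.6 to 280.9 ± 37.6 normalized counts, log2 fold change 1.23, adjusted p = 8.2e-05) and the proteoglycan *Acan* (709.2 ± 147.4 to 1196 ± 159.4, 0.76, adjusted p = 0.00526). The summed level of the 10 ran from 734 to 1153 in young and from 1374 to 1905 in old aortae. Most of that sum was *Acan* and *Hapln1*, so it says little about the other genes of the list. The defining cartilage collagen *Col2a1* was at 9.18 ± 11.7 and 42.0 ± 42.3 (log2 fold change 2.19, adjusted p = 0.108, and 0.019 by DESeq2), and *Ucma* was at 0 in all 10 libraries. *Chad*, the cartilage protein chondroadherin, went the other way, with a mean of 36.1 ± 23.3 in young and 8.59 ± 8.07 in old aortae (log2 fold change -2.02, adjusted p = 0.0512), and was called lower by DESeq2 (adjusted p = 0.00785) and limma-voom (adjusted p = 0.0339). *Col11a2* was at 86.5 ± 17.9 and 83.9 ± 37.7 (-0.04, adjusted p = 0.942). Of 5 tendon genes 4 could be tested and *Mkx* rose (48.3 ± 14.9 to 106.4 ± 21.8, 1.15, adjusted p = 0.00658), while *Tnmd* (-0.48), *Fmod* (-0.10) and *Scx* (0.07) did not pass and the list sums overlapped between the groups. The part of such cells in the level of *Comp* was not tested.

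*Thbs3*, of the same subgroup, had 1914 to 2333 normalized counts in young aortae (median 2177) and 1587 to 2128 in old aortae (median 1844). The groups overlapped and the log2 fold change of -0.19 (SE 0.08) did not pass the test (adjusted p = 0.152). The gene that overlaps the exons of *Thbs3* is *Mtx1*.

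*Thbs4*, the thrombospondin of tendon, muscle and nerve, was near the lower end of what was counted. Its raw counts were 21, 14, 17, 6 and 7 in young aortae 1 to 5 and 8, 9, 72, 5 and 12 in old aortae 1 to 5. Old 3 alone was high, and the other 4 old aortae lay at or below 12 counts, within or just under the young range. The log2 fold change of 0.66 (SE 0.70, adjusted p = 0.605) became -0.60 without old 3 (n = 4 old), so that its direction rested on that aorta. Old 3 also had the highest summed level of macrophage genes (11937 normalized counts against 4569 to 7528 in the other 9) and of lymphocyte genes (277.7 against 12.1 to 79.7). It was the highest for platelet (686.9) and chondrocyte genes (1905) too, and the lowest for endothelial genes (9230). For tendon, skeletal muscle and Schwann cell genes it was not the highest. Whether these bear on *Thbs4* was not tested.

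In the trimeric subgroup neither gene passed the test, and the 2 differed in how much they varied between mice. *Thbs1* had 3048, 3339, 5476, 3728 and 3370 normalized counts in young aortae 1 to 5 and 5374, 1771, 3185, 4502 and 3440 in old aortae 1 to 5. Young 3 and old 1 were high, old 2 was the lowest, and all young values but the highest lay inside the old range. The log2 fold change was -0.05 (SE 0.28, adjusted p = 0.94), and it turned to 0.12 without old 2 and to 0.12 without young 3. *Thbs2* was steadier, with 2601 to 2799 normalized counts in young aortae (median 2777) and 2420 to 3169 in old aortae (median 2954). Its log2 fold change was 0.06 (SE 0.07, adjusted p = 0.631), and 0.11 without old 2 (adjusted p = 0.286). The coefficient of variation was 25.6% in young and 37.5% in old aortae for *Thbs1*, and 2.94% and 10.6% for *Thbs2*.

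*Postn*, which helps to cross-link collagen and was the third most abundant of the 9 per length, had 52689, 66524, 63217, 59777 and 69873 normalized counts in young aortae 1 to 5 and 54204, 41149, 58626, 52175 and 53269 in old aortae 1 to 5. Young 1 was low within its group and lay below 3 of the old aortae. The means were 62416 ± 6609 and 51885 ± 6482 (SD, n = 5 each), with a log2 fold change of -0.26 (SE 0.10) that did not pass the adjusted threshold (adjusted p = 0.117). Without young 1 it did (-0.32, adjusted p = 0.0407), and without old 2 it was -0.19 (adjusted p = 0.172).

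*Tnc*, a large glycoprotein that loosens cell adhesion and is made in injured arteries, had 5307 to 9403 normalized counts in young aortae (median 8468) and 5280 to 9181 in old aortae (median 7580). The ranges almost coincided, and the log2 fold change was -0.06 (SE 0.17, adjusted p = 0.858). It was 0.04 without old 2 and 0.01 without young 4.

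*Fn1* had 113478, 116913, 163116, 145610 and 141693 normalized counts in young aortae 1 to 5 and 239800, 120078, 188167, 191551 and 173607 in old aortae 1 to 5. Old 2 lay among the young aortae, and the other 4 old aortae were above all of them. The means were 136162 ± 20805 and 182641 ± 42932 (SD, n = 5 each), a ratio of 1.34, and the log2 fold change of 0.43 (SE 0.16) did not pass the test (adjusted p = 0.107). Without old 2 the old mean was 198282 ± 28753 (n = 4), the log2 fold change 0.55 and the adjusted p 0.0154. DESeq2 on all 10 aortae gave 0.43 with an adjusted p of 0.0415. *Fn1* took 0.622% ± 0.0930 of all counts in young and 0.853% ± 0.194 in old aortae, and was the gene ranked 8 of 14614 by level.

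Together the 9 genes held 1.47% ± 0.106 of all counts in young and 1.43% ± 0.264 in old aortae. Without old 2, 3 of the 9 genes were called, namely *Sparc*, *Comp* and *Fn1*, where 10.5% of all genes tested were.

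Ratios of 2 genes within a library do not depend on how libraries are scaled, and for 7 such pairs the old and young means were tested by exact permutation, two-sided. The log2 ratio of *Sparc* to *Fn1* counts was -0.21, -0.10, -0.73, -0.37 and -0.43 in young aortae 1 to 5 and -2.13, -1.63, -1.55, -1.78 and -1.72 in old aortae 1 to 5. No old aorta, old 2 included, reached the young range. The mean ratio was lower in old aortae by a log2 difference of -1.39 (exact permutation p = 0.00794, the smallest that 5 against 5 can give, adjusted p = 0.0278 over the 7 pairs). The ratio of *Sparc* to *Sparcl1*, its closest relative, was 2.72 ± 0.10 in young and 1.14 ± 0.22 in old aortae on the log2 scale (SD, n = 5), also without overlap (difference -1.59, exact permutation p = 0.00794, adjusted p = 0.0278). Both outcomes followed from the ranges of *Sparc*, *Fn1* and *Sparcl1* in the groups, so these p-values add no support of their own. The pairs were chosen with earlier results of these data known. The log2 ratio of *Postn* to *Tnc* differed by -0.20 (adjusted p = 0.37 in the exact permutation test). The 4 remaining pairs, *Thbs1* to *Thbs2*, *Thbs3* to *Thbs4*, *Comp* to *Thbs4* and *Thbs1* to *Thbs4*, differed by -0.16, -0.31, 0.35 and -0.22 (each adjusted p = 0.81 in the exact permutation test), and all of them overlapped between the groups.

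**Figure D3:**
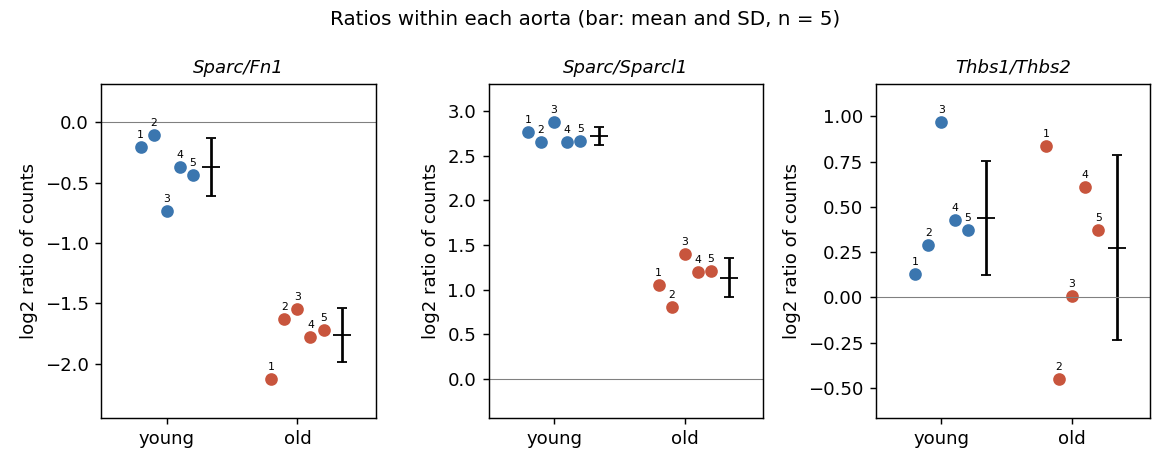
Log2 ratio of the counts of 2 genes within each library for 3 of the pairs, with 1 numbered point per aorta and the mean and SD of each group (n = 5). Old aortae lie between -2.13 and -1.55 for *Sparc* to *Fn1*, all below the young range of -0.73 to -0.10, and the old and young points of *Sparc* to *Sparcl1* are likewise apart, while those of *Thbs1* to *Thbs2* overlap.

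Among 18 related matricellular genes, 14 could be tested, of which 3 rose, 3 fell and 8 did not pass (median log2 fold change -0.12). Of all tested genes 6.48% rose and 4.99% fell. *Sparcl1* had 14414, 17255, 13375, 17899 and 16591 normalized counts in young aortae 1 to 5 and 26431, 22126, 24316, 24182 and 22807 in old aortae 1 to 5. Every old aorta was above every young one, and the log2 fold change was 0.60 (SE 0.09, adjusted p = 0.000829), opposite in sign to that of *Sparc*. *Fstl1*, a follistatin-like gene of the SPARC family, fell from 36825 ± 2130 to 25951 ± 3367 (-0.50, SE 0.09, adjusted p = 0.00343). Of the CCN genes, *Ccn3* rose (21171 ± 3519 to 31534 ± 4518, 0.58, adjusted p = 0.00965) and *Ccn2*, the connective tissue growth factor, fell (93645 ± 22811 to 54893 ± 9499, -0.76, adjusted p = 0.0149). *Ccn1* was at 19903 ± 9008 and 9013 ± 3526 and did not pass (-1.14, SE 0.42, adjusted p = 0.122). The tenascin *Tnr* rose from 273.1 ± 87.3 to 862.0 ± 341.8 (1.67, adjusted p = 0.0154), while *Tnxb*, the tenascin of loose connective tissue, did not pass (-0.22, adjusted p = 0.208). Named after their values were seen, *Ccn5* fell (-0.75, adjusted p = 0.0479), a call lost without any 1 aorta but young 3 and old 3, and osteopontin (*Spp1*) had the largest difference of the list but did not pass (median 47.3 normalized counts in young against 382.1 in old aortae, with 2383 in old 3 and 301.1 in young 3, log2 fold change 2.89, SE 0.89, adjusted p = 0.069).

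Of 16 receptors for these proteins none rose by edgeR, DESeq2 or limma-voom. By edgeR 5 fell, against 4.99% of all tested genes, and 11 did not pass, with a median log2 fold change of -0.19. *Itga4*, whose integrin binds fibronectin, fell from 217.9 ± 20.8 to 132.4 ± 20.5 normalized counts (-0.71, SE 0.12, adjusted p = 0.00252), and *Itgb3*, the β chain of the vitronectin receptor, from 4817 ± 299.4 to 3576 ± 473.4 (-0.42, SE 0.09, adjusted p = 0.00898), both without overlap. The syndecans *Sdc1* (-0.42, adjusted p = 0.0209) and *Sdc4* (-0.46, adjusted p = 0.0345) and the toll-like receptor *Tlr4* (-0.48, adjusted p = 0.0435) fell with overlapping groups. The call of *Sdc1* was lost without old 5, that of *Sdc4* without any 1 of young 2, 4 and 5 and old 2 to 5, that of *Tlr4* without any 1 aorta but young 1, and the list held 2 to 7 called genes over the 10 omissions. The abundant integrin chains *Itga8* (82504 ± 8520 and 70572 ± 4270, adjusted p = 0.112) and *Itgb1* (50322 ± 4910 and 47255 ± 3401, adjusted p = 0.572) did not pass by edgeR, while DESeq2 called *Itga8* lower (adjusted p = 0.0358).

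Among 21 genes of binding partners and processing enzymes, 2 rose, 9 fell and 10 did not pass (median log2 fold change -0.38). Of all tested genes 6.48% rose and 4.99% fell. The fibrillar collagens that SPARC binds fell, *Col3a1* from 76905 ± 7575 to 40179 ± 6460 (-0.93, adjusted p = 0.000241), *Col1a1* from 58611 ± 8337 to 31070 ± 6754 (-0.91, adjusted p = 0.00277) and *Col1a2* from 88264 ± 10002 to 52121 ± 10050 (-0.75, adjusted p = 0.00282). *Lox*, the lysyl oxidase that cross-links collagen and elastin, fell from 7095 ± 933.0 to 2827 ± 604.4 (-1.32, adjusted p = 0.000241), and the protease *Adamts4* from 78.9 ± 13.5 to 35.8 ± 10.4 (-1.13, adjusted p = 0.00565). None of these 5 overlapped between the groups. The other genes called, also named after their values were seen, were *Tgfb1* (0.31, adjusted p = 0.0148) and *Mmp9* (0.73, adjusted p = 0.0465), which rose, and *Fbln1*, *Fbln2*, *Col5a1* and *Adamts12*, which fell. The more abundant *Tgfb3* was at 8096 ± 1059 and 6158 ± 991.9 and did not pass in edgeR (-0.39, adjusted p = 0.0512). It was called lower by DESeq2 (adjusted p = 0.0127) and limma-voom (adjusted p = 0.0485). *Tgfb2* did not pass (-0.78, adjusted p = 0.108). Leaving out 1 aorta ended the call of *Mmp9* for all but young 3 and old 2, that of *Fbln1* without young 2, young 5, old 1 or old 2 and that of *Adamts12* without young 4. *Tgm2*, the transglutaminase that cross-links fibronectin, was at 24176 ± 3461 and 23626 ± 2228 (-0.03, adjusted p = 0.905), and *Adamts1* was at 10584 ± 2981 and 6948 ± 1824 (-0.60, adjusted p = 0.131).

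**Figure D4:**
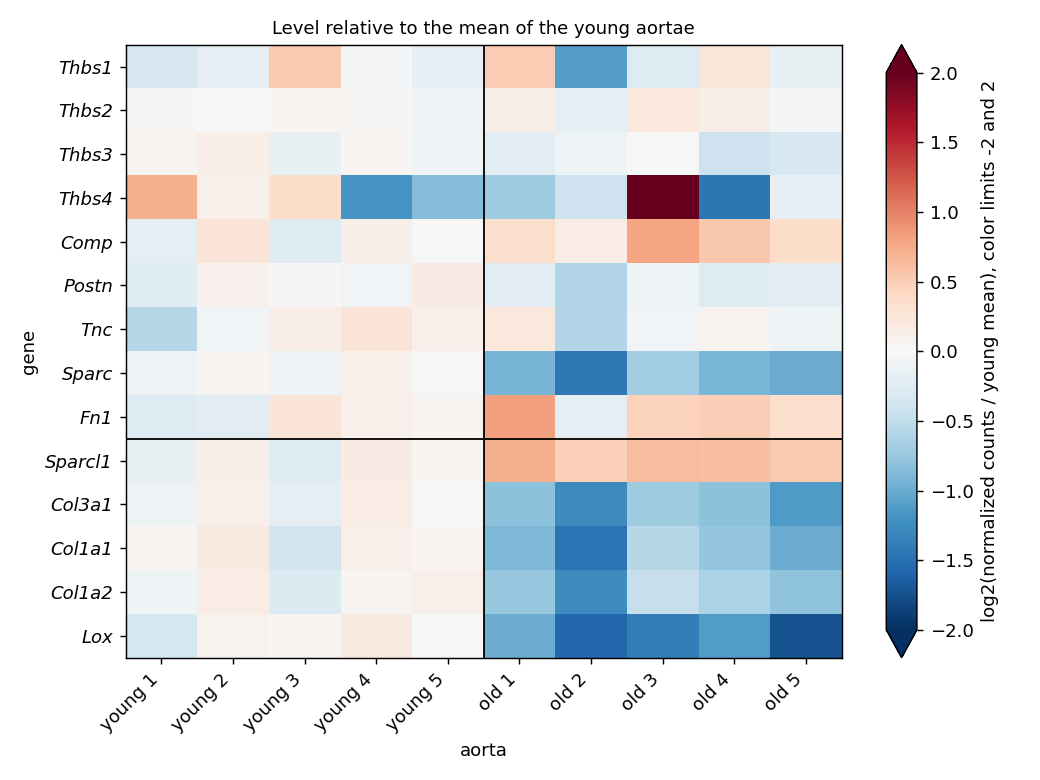
Level of the 9 genes (above the line) and of *Sparcl1*, *Col3a1*, *Col1a1*, *Col1a2* and *Lox* (below it) in each of the 10 aortae. Columns are aortae, rows are genes, and colour gives the log2 ratio of the normalized count to the young mean, limited at -2 and 2. All 5 old aortae are blue for *Sparc*, the collagens and *Lox* and red for *Sparcl1*, and the *Thbs1* count of old 2 was 42.9% of the mean of the other 4 old aortae.

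Of 10 genes that respond to TGF-β, 4 had an unadjusted p below 0.05 in edgeR, against 26.7% of all tested genes. By edgeR none rose and 1 fell, *Skil* (-0.29, adjusted p = 0.0364), a call lost without any 1 of young 2 to 5, old 2, old 3 and old 5. *Bhlhe40* did not pass (0.87, adjusted p = 0.0573) but was called higher by DESeq2 (adjusted p = 0.0162) and limma-voom (adjusted p = 0.0252), and *Pmepa1* (-0.18, adjusted p = 0.223) did not pass. Of 14 immediate early genes, *Junb* rose (0.77, adjusted p = 0.00957) and *Atf3* (-2.28, adjusted p = 0.00596) and *Fosb* (-1.16, adjusted p = 0.0337) fell by edgeR, the last not without young 3, young 4, old 1, old 3 or old 5, while *Egr1* (0.20, adjusted p = 0.642) and *Dusp1* (-0.25, adjusted p = 0.492) did not pass. DESeq2 also called *Jun* lower (adjusted p = 0.026) and *Egr2* higher (adjusted p = 0.0285), and limma-voom also called *Egr2* higher (adjusted p = 0.0462).

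Cell types that may be present in the tissue were followed through marker lists. Which of them make these proteins was not tested. Of 7 smooth muscle genes 1 rose (*Smtn*, 0.29) and 6 did not pass, with summed levels of 796386 to 945758 normalized counts in young against 736475 to 900014 in old aortae. Of 7 fibroblast genes *Lum* rose (0.58) and *Mfap5* (-1.03) and *Pi16* (-0.58) fell by edgeR, with sums of 86294 to 94217 and 80077 to 102703. *Dcn* did not pass by edgeR (0.27, adjusted p = 0.0634) and was called higher by DESeq2 (adjusted p = 0.0212). Of 6 macrophage genes 4 rose by edgeR, against 6.48% of all tested genes. Their sums of 4569 to 6096 in young and 6258 to 11937 in old aortae did not overlap. DESeq2 called all 6 higher, limma-voom called 5 and edgeR without old 2 called 2. Of 6 endothelial genes all had negative log2 fold changes (median -0.66) and 5 an unadjusted p below 0.05 in edgeR, against 26.7% of all tested genes. But none passed in edgeR with all aortae, with sums of 18340 to 31422 in young and 9230 to 21375 in old aortae. DESeq2 called 4 of them lower (against 15.8% of all genes called), limma-voom 4 (against 11.6%) and edgeR without old 2 called 5, *Pecam1*, *Cdh5*, *Tie1*, *Vwf* and *Emcn*. The 5 adipocyte genes were likewise all negative (median -1.03), 4 with an unadjusted p below 0.05, and none passed in edgeR or limma-voom, while DESeq2 called *Plin1* and *Car3* lower. None of the 5 Schwann cell, 4 skeletal muscle and 2 lymphocyte genes tested passed by edgeR, DESeq2 or limma-voom, with 1, 0 and 0 at an unadjusted p below 0.05. Of 4 platelet genes *Itga2b* rose by edgeR, while *Gp1ba* had a negative log2 fold change and did not pass (-1.40, adjusted p = 0.0605). DESeq2 also called *Pf4* higher (adjusted p = 0.0324) and *Gp1ba* lower (adjusted p = 0.0438). Single calls were lost by omission of 1 aorta for *Smtn* (young 3, young 5 or old 5), *Itga2b* (all but young 1 and old 4) and 3 of the 4 macrophage genes (*Adgre1*, *C1qa* and *C1qb*, without young 2, 4 or 5 in each case, and both C1q genes also without young 3 or old 2), but not for *Cd68*. The part of these cell types in the changes of *Sparc* and *Comp* was not tested.

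Within groups, the 9 genes differed in which aortae they were high or low in. After removal of the group means, the log2 levels of *Thbs1* and *Fn1* followed each other over the 10 aortae with Pearson's r of 0.93 and Spearman's rho of 0.952, and r was 0.776 without old 1 and old 2, the 2 aortae farthest from the median. *Tnc* and *Fn1* gave 0.875, 0.964 and 0.796 in the same order, and *Comp* and *Sparc* 0.822, 0.915 and 0.795 without old 2 and old 3. *Postn* and *Sparc* gave 0.792 and 0.527, and r fell to 0.366 without old 2 and old 3, so that this relation rested on those aortae. The 2 genes of a pair share each library and its depth, and these values are descriptions of 10 aortae.

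The tested genes most like each member by the same measure were *Capns1* (r = 0.97), *Bgn* (0.969) and *Islr* (0.968) for *Sparc*, *Scpep1* (0.957), *Emb* (0.952) and *Ttc19* (0.95) for *Comp*, and *Plau* (0.95), *Lactb* (0.944) and *Pcsk5* (0.94) for *Fn1*. For *Postn* they were *Rer1* (0.99), *Pdxdc1* (0.982) and *Pam* (0.974), and *Champ1* (0.972) and *Gnai3* (0.952) were among those nearest to *Tnc*. *Fn1* was itself among the 3 nearest to *Thbs1* (0.93), with *Btbd1* (0.935) and *Bnip1* (0.925). *Tbc1d7* (0.95), *Zdhhc3* (0.949) and *Trim13* (0.939) were nearest to *Thbs2*, *Cyp26b1* (0.944), *Lncppara* (0.926) and *Cox4i2* (0.919) to *Thbs3*, and *Bbc3* (0.943), *Ndufv2* (0.929) and *Tspo* (0.926) to *Thbs4*. For every member the named genes were picked for a high r among the 14614 tested genes. How high r runs by chance in such a pick was not tested, so these values only describe these aortae. How far they rest on single aortae was not tested either, except for *Thbs1* and *Fn1* above. The *Thbs4* values come from few counts per library with old 3 alone high, and how far they rest on that aorta was not tested. The likeness to *Bgn* and *Islr* was within groups only, since neither passed the test between old and young (log2 fold changes of 0.06 and 0.23). That of *Scpep1* and *Emb* to *Comp* was likewise within groups only. By edgeR both fell with age (-0.396, adjusted p = 0.0017, and -0.605, adjusted p = 0.00698), while *Comp* rose.

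**Figure D5:**
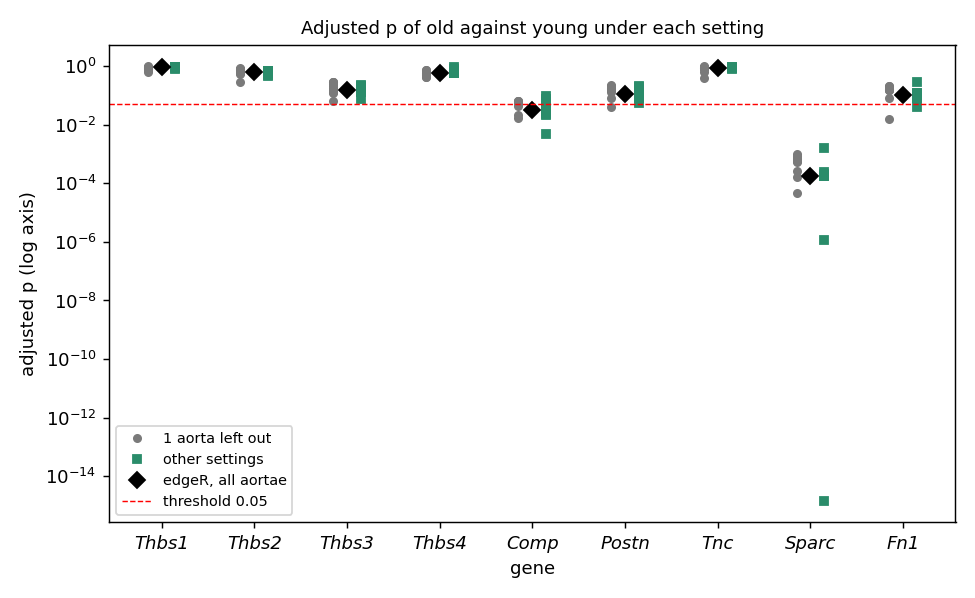
Adjusted p of old against young aortae (log axis) for each of the 9 genes, in edgeR with all aortae (diamonds), with 1 aorta left out (circles) and under the other settings (squares), with the threshold of 0.05 as a dashed line. All points of *Sparc* lie below the line (at most 0.00165), and the points of *Comp*, *Postn* and *Fn1* lie on both sides of it.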

How the data were processed

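RNA of 10 aortae was sequenced as stranded mRNA libraries, 1 per mouse. Per the submitters' processing notes, the authors filtered reads with fastp 0.20.0 (shortest read 35 bases), aligned them to GRCm38 with STAR 2.7.0f and counted them per gene with featureCounts of Subread 1.6.4. The deposited values are raw counts for 55453 symbols. The strand setting of the counting and the handling of reads with several alignments are not given in the sources used here.

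Positions, exon lengths and overlaps came from GENCODE M21 on the same build (the authors used M22), in which 54471 symbols matched 1 gene, 115 several and 867 none. Genes were filtered with filterByExpr and tested with the quasi-likelihood F test of edgeR 4.0.16 (R 4.3.3, robust fit, TMM scaling, no covariates), with Benjamini-Hochberg adjustment over 14614 genes of 28011 with a count. Normalized counts are counts divided by size factors of DESeq2 1.42.0. Ratios used a pseudocount of 0.5. The pipeline was tested on simulated data. Libraries held 19640401 to 22886153 counts, and the spread between mice, which includes counting error, is in each standard error. Counts of 2 libraries of 1 group differed at least 6.04 times more than counting error gives.

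The alternatives were DESeq2, limma-voom (3.58.1), 3 other scalings, 2 other filters, the replicate number as a block, a correction for GC content and length, a pseudocount of 1, and the omission of each aorta. The 9 members, the pairs and all gene lists were chosen with earlier results of these data known. Named are all members, up to 5 called genes with the smallest p and up to 2 abundant genes not called from each list, and 3 genes most like each member. A result that the rule would name is not reported here. *Ucma*, *Chad*, *Tnmd*, *Bhlhe40*, *Cdh5*, *Tie1*, *Emcn*, *Plin1*, *Gp1ba*, *Tgfb2*, *Tgfb3*, *Jun* and *Egr2* were named after their values were seen. Sequences came from a RefSeq promoter table, which held 6 of the 9 members. Protein was not measured.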

Additional observations from a re-analysis of the deposited data

Results flagged for a closer look

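Of the 18 groups of 5 aortae, 2 for each of the 9 genes, 2 held an aorta set far from the other 4 by Dixon's test at the 95% level, a test that chance alone meets in about 1 in 20 groups. *Thbs1* had 5476 normalized counts in young 3, against 3048 to 3728 in the other 4 young aortae. *Thbs4* had 67.1 normalized counts in old 3, against 4.82 to 11.7 in the other 4 old aortae, from 72 raw counts. Neither gene passed the test between old and young aortae.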

How the results depend on the processing

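*Sparc* stayed called in all 19 alternatives (log2 fold change -1.04 to -0.87, adjusted p at most 0.00165). *Comp* kept its direction but was not called without the low-count filter (0.457, adjusted p = 0.0769), with the replicate number as a block (0.458, adjusted p = 0.10), with the GC and length correction (0.414, adjusted p = 0.0613) or without any 1 of 7 aortae (0.363 to 0.531 over the 10 omissions), and 1 member was called there, except without young 1, where *Postn* made it 2. The number called ranged from 1 to 3 over the omissions. *Fn1* passed with DESeq2 (0.427) and without old 2 (0.545), with a range of 0.312 to 0.545 over the omissions, and *Postn* passed without young 1 (range -0.315 to -0.190). Omitting 1 aorta changed the sign of *Thbs1* (-0.229 to 0.125), *Thbs4* (-0.599 to 0.907) and *Tnc* (-0.176 to 0.039), and of the log2 ratios *Thbs1* to *Thbs4* (-0.641 to 0.402), *Thbs1* to *Thbs2* (-0.303 to 0.019), *Thbs3* to *Thbs4* (-0.579 to 0.233) and *Comp* to *Thbs4* (-0.001 to 0.854), none of which was called. The cause was not tested. For *Sparc* to *Fn1* (-1.482 to -1.300) and *Sparc* to *Sparcl1* (-1.654 to -1.505), the exact permutation test with 4 against 5 aortae could give no adjusted p below 0.0556 here. Same-numbered young and old aortae deviated together with correlations of -0.30 to 0.132, and 2 of the 5 young aortae were most like the old aorta of their own number, so that the numbers do not pair the mice. The block lowered the calls over all genes from 1676 to 1261, which gave 3 of the 16 receptors in place of 5 and no TGF-β response gene in place of 1, and *Ccn2* (adjusted p = 0.0618), *Atf3* (0.0703) and *Fosb* (0.0874) were not called under it. Without single aortae, 0 to 2 TGF-β response and 2 to 6 immediate early genes were called. Depth limits *Thbs4*, with 5 to 72 counts per library.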
